A study of Rattus norvegicus with 45 samples.

Results

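The AMPA and kainate receptor subunits are the 9 genes Gria1, Gria2, Gria3, Gria4, Grik1, Grik2, Grik3, Grik4 and Grik5. They are 9 of the 14863 genes named in the array's annotation. They were taken as all probe sets of the Affymetrix rat whole-genome expression array whose platform gene symbol is one of these names, which gave 13 of the 31099 probe sets on the array. A probe set is a group of short oligonucleotides that together report 1 transcript. The subunit transcripts were followed in frontal cortex, hippocampus and striatum of 15 male Sprague-Dawley rats (45 arrays, 3 regions from every rat). Subcutaneous minipumps, implanted at 9 to 11 weeks of age, delivered haloperidol at 0.25 mg/kg/d, risperidone at 5 mg/kg/d or vehicle (dilute acetic acid in water) for 21 days, to 5 rats per treatment. Haloperidol is a first-generation antipsychotic that blocks dopamine D2 receptors, and risperidone is a second-generation antipsychotic that blocks D2 and serotonin 2A receptors. The comparison asks whether long antipsychotic treatment alone shifts transcripts in these brain regions of healthy rats, and both drugs were compared with the same vehicle rats. These are rats without any disease model, only males were used, and each drug was given at 1 dose, so the doses of the drugs cannot be matched to each other.

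AMPA receptors are glutamate-gated cation channels made of 4 subunits drawn from GluA1 to GluA4 (genes Gria1 to Gria4), and they carry most fast excitatory transmission in the brain. The GluA2 subunit, after editing of its RNA, makes the channel nearly impermeable to calcium, and the number of AMPA receptors at a synapse changes during long-term potentiation and depression. Kainate receptors are built from the low-affinity subunits GluK1 to GluK3 (Grik1 to Grik3) and the high-affinity subunits GluK4 and GluK5 (Grik4 and Grik5), which need a low-affinity partner to form a working channel. They act on both sides of the synapse and are well known at the mossy fibre synapse of the hippocampus. Striatal projection neurons receive their glutamate input from cortex and thalamus through these receptors.

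Of the 13 probe sets, 12 passed a filter on low values (a mean log2 intensity at or above 5.883, the 40th percentile of all probe sets). Gria1 (chromosome 10, 41710540 to 42030105 in the GRCr8 assembly) was read by 1 probe set, 1371013_at. Gria2 (chromosome 2, 168247490 to 168367616) and Gria3 (chromosome X, 125103975 to 125369690) had 2 each, and Gria4 (chromosome 8, 9845421 to 10320021) had 3. The kainate subunits had 1 each, with Grik1 on chromosome 11 (40655974 to 41056966), Grik2 on chromosome 20 (53717564 to 54415283), Grik3 on chromosome 5 (143052442 to 143268873), Grik4 on chromosome 8 (51802045 to 52228751) and Grik5 on chromosome 1 (89733736 to 89795769). Grik3, with a mean of 4.86, was the member that failed the filter and has values only. No member probe set was assigned to a further gene. Which exons each probe set covers was not determined.

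Promoter sequences from RefSeq (GRCr8, 250 bases before to 50 bases after an annotated start) were at hand for 6 of the 9 members, namely Gria4 and the 5 kainate subunits. The promoters of Grik1 and Grik2 are shown because these low-affinity subunits had opposite regional patterns below, with Grik1 lowest and Grik2 highest in striatum. Capitals mark the half-site of the cAMP response element, TGACG, searched on both strands. Grik1 lies on the minus strand at chr11:41056454-41056753 and Grik2 on the minus strand at chr20:54415234-54415533.
Grik1: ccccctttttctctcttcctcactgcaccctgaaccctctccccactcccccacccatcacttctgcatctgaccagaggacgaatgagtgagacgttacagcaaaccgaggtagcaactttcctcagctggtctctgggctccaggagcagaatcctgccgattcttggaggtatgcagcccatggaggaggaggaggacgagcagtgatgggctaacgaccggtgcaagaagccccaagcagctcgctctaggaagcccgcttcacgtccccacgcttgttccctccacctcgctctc
Grik2: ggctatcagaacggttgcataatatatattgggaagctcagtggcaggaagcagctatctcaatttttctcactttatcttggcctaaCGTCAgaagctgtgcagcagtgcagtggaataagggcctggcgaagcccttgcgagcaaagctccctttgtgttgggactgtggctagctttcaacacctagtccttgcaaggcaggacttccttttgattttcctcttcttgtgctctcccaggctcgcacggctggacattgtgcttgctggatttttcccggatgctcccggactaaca
The half-site was found once, at position -162 from the start of Grik2, and not in the Grik1 window or in the other 4 promoters, while 21.2% of the 33469 promoters of this length held it on either strand. The E-box CAGCTG, present in 15.1% of all promoters, occurred once in Grik1, 2 times in Gria4 and in none of the other 4. The GC box GGGCGG (33.1% of all promoters) was found 6 times in Grik3, 2 times in Grik5 and in none of the other 4, and TATAAA (14.2%) in none of the 6. The GC content of the 6 promoters ran from 44% in Grik4 to 82.3% in Grik3, against a median of 51.7% over all promoters. The Grik4 window (chr8:52102014-52102313, minus strand) belongs to a start inside the gene, far from the gene's upstream end at 52228751. These matches describe letters and are not evidence of binding.

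The striatum and hippocampus labels were checked against markers in the vehicle rats, and the frontal cortex label was not checked with a marker of its own. The striatal dopamine receptor transcript Drd1 had a mean log2 intensity of 11.9 in striatum against 6.82 in frontal cortex and 6.11 in hippocampus, and the granule cell factor Prox1 was at 9.24 in hippocampus against 6.26 and 6.64 in frontal cortex and striatum. Of the other listed granule cell markers, Zbtb20 and Neurod1 were also highest in hippocampus. Dsp was level in hippocampus and frontal cortex (6.09 and 6.10), and Calb1 was lowest in hippocampus (10.1 against 10.4 in frontal cortex and 11.2 in striatum). The sample records call the tissue mouse brain, but the animals and the array are rat. Median intensities of the deposited arrays were 89.9 to 93.1 in frontal cortex, 106.7 to 110.4 in hippocampus and 87.9 to 92.1 in striatum, so regions were compared after quantile normalization over the 45 arrays and drugs on the deposited values. Several arrays stood apart in markers of neighbouring tissue, by more than 3 scaled median absolute deviations from their region's median. In frontal cortex, haloperidol rat 5 and risperidone rats 2 and 5 were high in olfactory bulb markers, and in striatum risperidone rat 3 was high in pyramidal neuron markers. Where leaving out these 4 arrays changed a call of a drug against vehicle, the value without them is given. In tissue, fewer cells of a type and less RNA per cell cannot be told apart.

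Among the AMPA subunits of the vehicle rats, Gria1 was a hippocampal transcript and Gria3 a frontal cortex transcript. GluA1, encoded by Gria1, is the subunit whose delivery to synapses is best known from long-term potentiation. On the quantile-normalized log2 scale Gria1 averaged 10.31 ± 0.24 (SD, n = 5) in hippocampus, 9.12 ± 0.21 in striatum and 8.64 ± 0.12 in frontal cortex, and the rats of no region overlapped those of another. Hippocampus stood 3.18-fold above frontal cortex (log2 difference 1.67, SE 0.09, limma adjusted p = 1.24e-18) and 2.28-fold above striatum, and striatum 1.39-fold above frontal cortex (adjusted p = 1.79e-05). Gria2, which sets calcium permeability, varied less. Its probe set 1368401_at averaged 12.63 ± 0.06 in hippocampus, 12.22 ± 0.05 in striatum and 12.15 ± 0.05 in frontal cortex. Hippocampus was 1.39-fold above frontal cortex (adjusted p = 7.53e-09), and striatum and frontal cortex did not differ beyond their spread (log2 difference 0.06, 95% confidence interval -0.05 to 0.18). The second Gria2 probe set, 1387171_at, was 1.14-fold higher in hippocampus than in frontal cortex, below the 1.2-fold that was required.

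Gria3 was highest in frontal cortex with both of its probe sets. With 1376892_at the 5 vehicle rats averaged 11.59 ± 0.02 in frontal cortex, 10.82 ± 0.04 in hippocampus and 10.69 ± 0.12 in striatum. Frontal cortex was 1.70-fold above hippocampus (adjusted p = 3.63e-13) and 1.86-fold above striatum (adjusted p = 1.2e-15), whereas hippocampus and striatum were not separated (log2 difference -0.13, adjusted p = 0.0721). With 1368691_at the same order held at smaller size, 1.40-fold and 1.53-fold. Gria4, a subunit prominent in fast-spiking interneurons, gave an order that depended on the probe set. With 1396696_at striatum (8.31 ± 0.24) was 1.48-fold above frontal cortex (7.74 ± 0.21) and 2.06-fold above hippocampus (7.26 ± 0.09). With 1383707_at striatum (9.59 ± 0.19) and frontal cortex (9.63 ± 0.06) were alike within their spread and hippocampus was lower (9.17 ± 0.24). With 1369384_at striatum (6.61 ± 0.15) was above both other regions. The shared element was a striatal level above the hippocampal one, by 1.30-fold to 2.06-fold. On the deposited values, where the median probe set is 0.30 lower in striatum than in hippocampus on the log2 scale, the last difference held for 1396696_at alone.

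Of the kainate subunits, Grik4 was a hippocampal and Grik2 a striatal transcript. Grik4, the high-affinity subunit known from hippocampal CA3 neurons, averaged 8.65 ± 0.10 in hippocampus, 7.45 ± 0.10 in frontal cortex and 6.77 ± 0.10 in striatum, with every rat of a region apart from every rat of the next. Hippocampus was 3.67-fold above striatum (log2 difference -1.87 for striatum minus hippocampus, SE 0.09, adjusted p = 1.41e-20) and 2.29-fold above frontal cortex. Grik2, the low-affinity subunit of most brain kainate receptors, ran the other way. It averaged 9.24 ± 0.10 in striatum, 8.33 ± 0.10 in hippocampus and 7.98 ± 0.09 in frontal cortex, again without overlap, and striatum was 2.40-fold above frontal cortex (adjusted p = 6.64e-16) and 1.87-fold above hippocampus. Grik1 was lowest in striatum (5.49 ± 0.12), 1.43-fold below frontal cortex (6.01 ± 0.22) and 1.60-fold below hippocampus (6.17 ± 0.14), and frontal cortex and hippocampus were not separated (adjusted p = 0.245). The striatal level lay below 5.883, the filter value, which Grik1 passed through the other regions, so these folds are taken against a dim signal. Grik5, the other high-affinity subunit, was nearly even, at 8.86 ± 0.13 in hippocampus, 8.75 ± 0.13 in striatum and 8.64 ± 0.13 in frontal cortex, and no pair passed the test. Grik3 had mean quantile-normalized levels of 4.92 in frontal cortex, 4.64 in hippocampus and 5.14 in striatum, all under the filter.

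**Figure D1:**
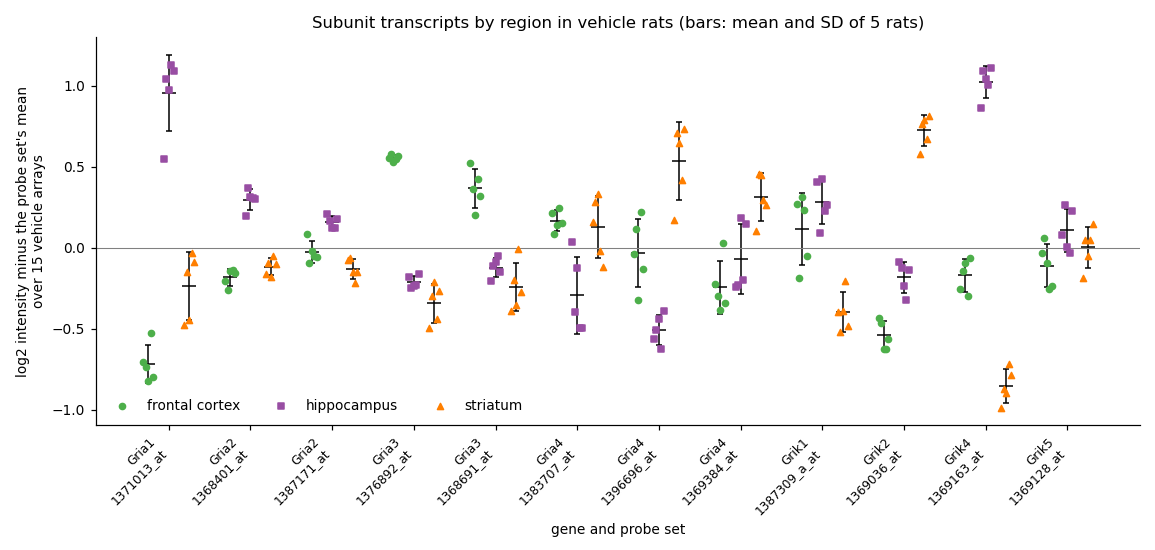
Log2 intensity of each tested member probe set in the vehicle rats after quantile normalization, minus that probe set's mean over its 15 vehicle arrays. Points are rats and bars the mean and SD of 5 rats; Gria1 and Grik4 were highest in hippocampus, Gria3 in frontal cortex and Grik2 in striatum, and Grik1 and Grik4 were lowest in striatum.

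In counts, 4 of the 12 tested member probe sets were higher and 4 lower in hippocampus than in frontal cortex, where 31% of the 18609 tested probe sets passed, 15.2% higher and 15.7% lower. Between striatum and frontal cortex 4 were higher and 4 lower (45.5% of all passed, 22.6% higher and 22.9% lower), and between striatum and hippocampus 4 higher and 5 lower (46.1% of all passed, 22.8% higher and 23.3% lower). Vehicle rats of a pair of regions did not overlap for 37.5%, 46.8% and 49.3% of all probe sets in these comparisons. A regional difference is therefore common on this array. How the sizes above compare with those of all probe sets was not tested. All member differences between regions that passed did so with any 1 of the 15 rats left out.

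Under the drugs, the 12 member probe sets gave 4 differences from vehicle that passed the test (adjusted p below 0.05 and at least 1.2-fold), all under risperidone and all downward, and they belonged to Gria1 and Gria3. In frontal cortex 2 of 12 were lower after risperidone, where 3.4% of all tested probe sets passed and 1.89% were lower. In striatum 2 of 12 were lower, where 3.65% passed and 2.76% were lower. In hippocampus none passed after risperidone (0.113% of all) and 3 had an unadjusted p below 0.05, as did 16.6% of all probe sets. After haloperidol no member passed in limma in frontal cortex (0.177% of all), hippocampus (0% of all) or striatum (0.339% of all), and 4, 2 and 4 members had an unadjusted p below 0.05, as did 13.6%, 3.76% and 15.4% of all probe sets. The median member difference was below 0 in all 6 comparisons, from -0.11 in striatum after risperidone to -0.04 in hippocampus after haloperidol, while the medians over all tested probe sets lay between -0.04 and 0.01.

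**Figure D2:**
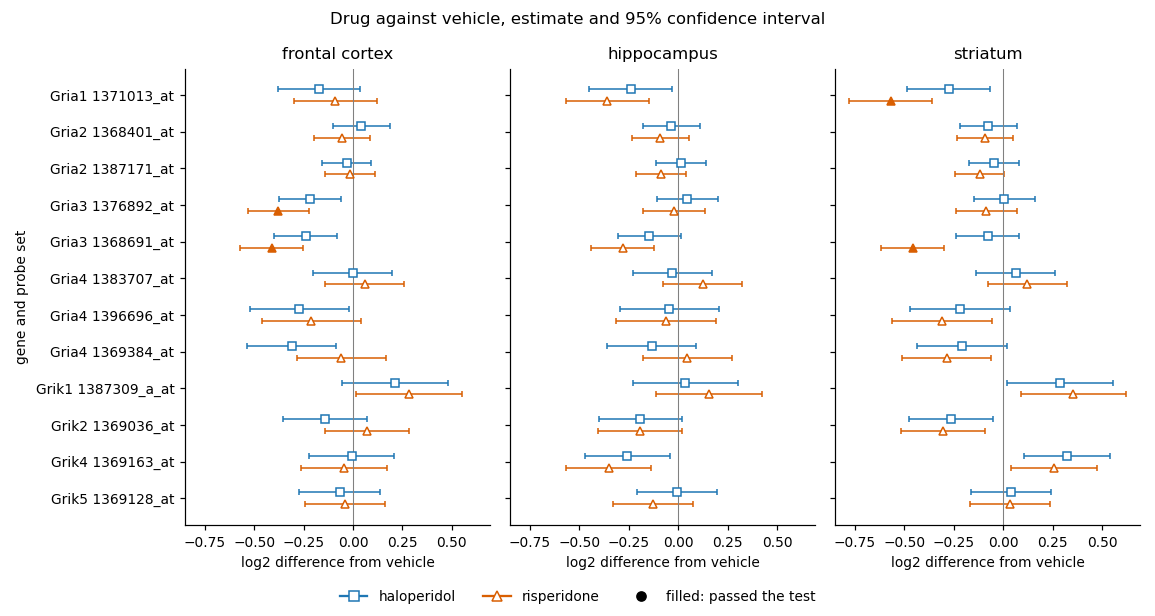
Log2 difference from vehicle of the 12 tested member probe sets in each region, with the 95% confidence interval, for haloperidol (squares) and risperidone (triangles). Filled symbols passed the test; these were both Gria3 probe sets in frontal cortex and Gria1 and the Gria3 probe set 1368691_at in striatum, all after risperidone.

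Gria1 fell in striatum after risperidone. The vehicle rats had log2 intensities of 8.76, 9.07, 8.78, 9.16 and 9.13 and the risperidone rats 8.49, 8.19, 8.28, 8.82 and 8.27. Every risperidone rat but the fourth lay below all vehicle rats. The difference was -0.57 (SE 0.10, 95% confidence interval -0.78 to -0.36, adjusted p = 7e-04), a 1.48-fold lower level. The call held with each of the 15 rats left out but not in a fit of striatum alone (adjusted p = 0.061). The haloperidol rats, at 8.92, 8.82, 8.80, 8.45 and 8.53, overlapped both groups and did not pass against vehicle (-0.27, adjusted p = 0.201) or against risperidone (risperidone minus haloperidol -0.29, adjusted p = 0.774).

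The same gene had lower means in the other regions without passing. In hippocampus 4 vehicle rats were at 10.51 to 10.66 and the first at 10.11, whereas the risperidone rats ran from 9.90 to 10.35. The difference was -0.36 (SE 0.10, adjusted p = 0.101), and it reached -0.46 (adjusted p = 0.0216) without the first vehicle rat. Haloperidol rats there ran from 10.07 to 10.40 (-0.24 against vehicle). In frontal cortex the haloperidol rats, at 8.38 to 8.49, all lay just below the vehicle rats, at 8.49 to 8.79 (3.96% of all probe sets did not overlap), but the difference of -0.17 did not pass (adjusted p = 0.462), and risperidone differed by -0.09. For risperidone the striatal difference exceeded that of frontal cortex by -0.48 (SE 0.13, adjusted p = 0.0313), in a comparison where 2.94% of all probe sets passed. That call was lost with 6 of the 15 rats left out in turn and without the 4 arrays apart in neighbouring-tissue markers (-0.38, adjusted p = 0.201).

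Gria3, whose subunit GluA3 pairs mostly with GluA2, fell in frontal cortex after risperidone with both probe sets. With 1376892_at the vehicle rats were tightly placed at 11.58, 11.57, 11.53, 11.55 and 11.57, the haloperidol rats at 11.34, 11.41, 11.39, 11.35 and 11.23 and the risperidone rats at 11.12, 11.06, 11.18, 11.25 and 11.32. All 10 drug-treated rats lay below all 5 vehicle rats. Risperidone differed from vehicle by -0.38 (SE 0.08, adjusted p = 0.00363), 1.30-fold lower, and haloperidol by -0.22 (SE 0.08, adjusted p = 0.21), which did not pass. With 1368691_at vehicle rats were at 10.47, 10.27, 10.12, 10.36 and 10.23, haloperidol rats at 10.10, 10.09, 10.06, 9.97 and 10.03 and risperidone rats at 9.92, 9.64, 9.79, 10.03 and 10.01, again with no overlap between vehicle and either drug. Risperidone differed by -0.41 (SE 0.08, adjusted p = 0.00225), 1.33-fold lower, and haloperidol by -0.24 (SE 0.08, adjusted p = 0.182). Groups without overlap made up 5.64% of all probe sets for risperidone and 3.96% for haloperidol in this region. The drugs did not pass against each other with either probe set (adjusted p = 0.234 and 0.217; 0.768% of all probe sets passed).

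Outside frontal cortex the 2 Gria3 probe sets gave different values. In striatum 1368691_at was at 9.39, 9.58, 9.43, 9.76 and 9.50 in vehicle rats and at 9.00, 8.81, 9.25, 9.17 and 9.14 in risperidone rats, without overlap (3.65% of all probe sets). The difference of -0.46 (SE 0.08, 95% confidence interval -0.62 to -0.30, adjusted p = 3.87e-04) was 1.37-fold. Haloperidol rats, at 9.33, 9.34, 9.66, 9.44 and 9.52, overlapped the vehicle rats (-0.08) and lay above all risperidone rats. The drug groups did not overlap for 0.36% of all probe sets, and in this direction for 0.107%. Risperidone minus haloperidol was -0.38 (SE 0.08, adjusted p = 0.0662), which narrowly missed the threshold in a comparison where 0.0161% of all probe sets passed. In the same striata 1376892_at was at 10.37 to 10.70 in vehicle rats and 10.25 to 10.76 in risperidone rats, a difference of -0.09 (95% confidence interval -0.24 to 0.07). In hippocampus 1368691_at was lower in every risperidone rat (9.57 to 9.83) than in every vehicle rat (9.93 to 10.07; 4.16% of all probe sets did not overlap). The difference was -0.28 (SE 0.08, adjusted p = 0.0934). Without the 4 arrays, none of them from hippocampus, it was again -0.28. The adjusted p was then 0.0452, through the shared spread and correction only. With 1376892_at the difference in hippocampus was -0.02 (95% confidence interval -0.18 to 0.13). With 1376892_at the risperidone effect differed between hippocampus and frontal cortex by 0.36 (SE 0.10, adjusted p = 0.0459; 1.32% of all probe sets passed), a call that was lost with 11 of the 15 rats left out in turn. Which transcript forms each probe set detects was not tested.

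**Figure D3:**
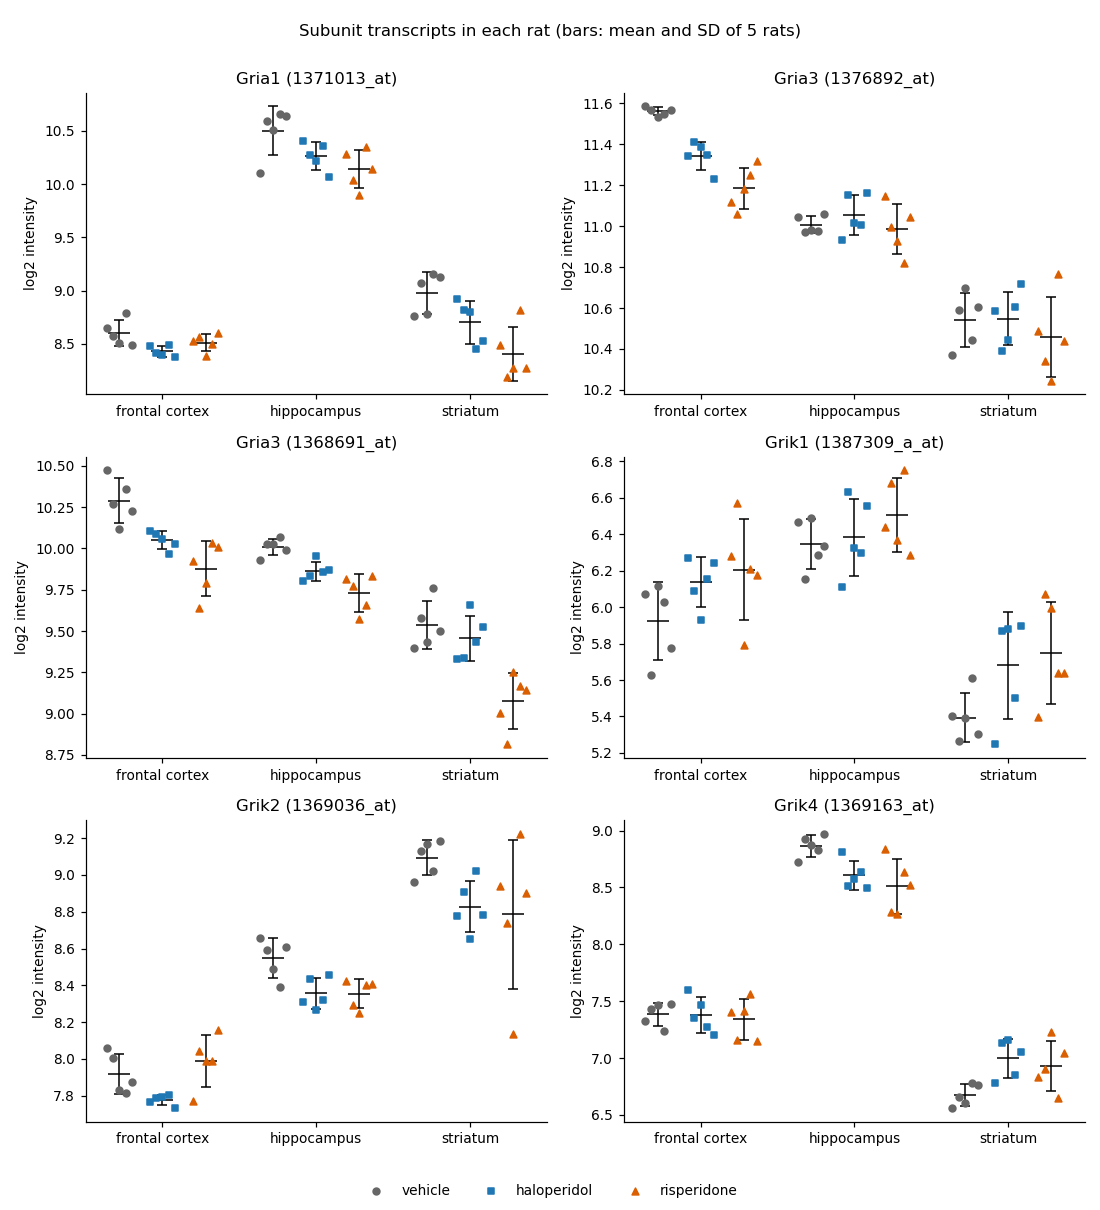
Log2 intensity (deposited scale) of 6 member probe sets in each rat by region and treatment, with bars for the mean and SD of 5 rats. In frontal cortex both Gria3 probe sets were lower in all risperidone rats than in all vehicle rats, in hippocampus and striatum this held for 1368691_at and not for 1376892_at, and striatal Gria1 was lower in 4 of 5 risperidone rats than in all vehicle rats.

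Gria2 and the first Gria4 probe set stayed within their spread under both drugs. For Gria2 the 95% confidence intervals of all 6 drug differences with 1368401_at lay between -0.24 and 0.18, and the point estimates between -0.09 and 0.04. With the second probe set, 1387171_at, striatal levels were 10.96 ± 0.06 in vehicle and 10.84 ± 0.17 in risperidone rats, and no drug difference passed. With 1368401_at in striatum after risperidone the third rat was far below the rest (11.54 against 12.04 to 12.21). For Gria4 the estimates with 1383707_at ran up to 0.12. The other Gria4 probe sets had unadjusted p-values below 0.05 in frontal cortex after haloperidol (-0.31 with 1369384_at and -0.27 with 1396696_at) and in striatum after risperidone (-0.29 and -0.31), and none passed after adjustment (adjusted p from 0.122 to 0.33).

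No kainate subunit passed against vehicle in any region with all rats. Leaving out 1 risperidone rat brought Grik1, Grik2 and Grik4 past the threshold in striatum and Grik4 in hippocampus. The striatal Grik1 means lay below 5.883, the filter value, under every treatment. Grik4 had the clearest regional contrast in its drug differences. In striatum, where it is lowest, all 5 haloperidol rats (6.78, 7.13, 7.16, 6.86 and 7.05) were above all vehicle rats (6.56, 6.66, 6.61, 6.78 and 6.76; 3.42% of all probe sets did not overlap), by 0.32 (SE 0.11, adjusted p = 0.154), and risperidone rats (6.84, 6.90, 7.23, 6.65 and 7.04) differed by 0.26 (adjusted p = 0.147; 0.33 and 0.0416 without risperidone rat 4). In hippocampus, where it is highest, the vehicle rats were at 8.72, 8.92, 8.87, 8.83 and 8.97, the risperidone rats at 8.84, 8.28, 8.27, 8.64 and 8.52 (-0.35, adjusted p = 0.106; 0.032 without risperidone rat 1) and the haloperidol rats at 8.50 to 8.81 (-0.26). Without the 4 arrays, none of them from hippocampus, the risperidone difference there was again -0.35 and the adjusted p was 0.0496. The risperidone effect in striatum minus that in hippocampus was 0.61 (SE 0.13, adjusted p = 0.0148; 1.66% of all probe sets passed), and for haloperidol the same difference was 0.58 (SE 0.13, adjusted p = 0.198; 0% passed). The risperidone call was lost without risperidone rat 3 (adjusted p = 0.0706) and without vehicle rat 3, and without the 7 arrays that stood apart in markers of any foreign tissue it was 0.44 (adjusted p = 0.163).

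Grik2 had lower means in striatum under both drugs. The vehicle rats were at 8.96 to 9.18, the haloperidol rats at 8.65 to 9.02 (-0.27, adjusted p = 0.224) and the risperidone rats at 8.94, 8.74, 8.13, 9.22 and 8.90 (-0.31, adjusted p = 0.0745). The third risperidone rat, the array high in pyramidal neuron markers, was by far the lowest, and without it the risperidone difference was -0.14 (adjusted p = 0.431). Without the fourth, the highest, it was -0.42 and passed (adjusted p = 0.00941), as it did without the first (-0.34, adjusted p = 0.0488). The haloperidol difference passed when the 4 arrays apart in neighbouring-tissue markers were left out (adjusted p = 0.0451). None of the 4 is a haloperidol or vehicle array of striatum. The difference therefore stayed at -0.27, and only the shared spread and correction changed. Grik1 had higher means in striatum after risperidone (0.36, adjusted p = 0.102; 0.44 and 0.0438 without risperidone rat 1) and haloperidol (0.29, adjusted p = 0.293) and in frontal cortex after risperidone (0.28, adjusted p = 0.192), with overlapping groups each time. The striatal Grik1 means, 5.39 in vehicle, 5.68 in haloperidol and 5.75 in risperidone rats, lay below 5.883, the filter value. The striatal Grik1 differences are therefore taken on a dim signal. Grik5 stayed within its spread, with estimates from -0.13 to 0.04. Grik3 ran from 4.49 to 5.08 in frontal cortex, 4.58 to 4.94 in hippocampus and 4.75 to 5.37 in striatum over all rats.

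Markers of neighbouring tissue moved with treatment beside some of these results. In frontal cortex the olfactory bulb and neuroblast list (5 of 7 genes on the array, 3 tested) had 3 genes higher after risperidone, and the mean log2 intensity of the list was 5.63 to 5.87 in vehicle, 5.79 to 7.21 in haloperidol and 5.89 to 8.66 in risperidone rats. In this list every risperidone rat was above every vehicle rat. The 3 risperidone rats with the lowest marker means, 5.89 to 6.25, had Gria3 levels of 11.12, 11.18 and 11.25 with 1376892_at, and all risperidone rats were below all vehicle rats. Of these, risperidone rat 1, at 11.12, stood apart in striatal projection neuron markers in frontal cortex. That list had means there of 7.28 to 7.96 in vehicle and 7.52 to 8.59 in risperidone rats. Without the 4 arrays apart in neighbouring-tissue markers the Gria3 differences in frontal cortex were -0.39 (adjusted p = 0.00885) with 1376892_at and -0.37 (adjusted p = 0.0137) with 1368691_at. With the marker mean as a covariate in frontal cortex alone they were -0.35 with both and no longer passed (adjusted p = 0.061 and 0.146).

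In striatum the pyramidal neuron list had 1 of 6 tested genes higher after risperidone, with means of 6.52 to 7.09 in vehicle, 6.89 to 7.96 in haloperidol and 6.62 to 8.50 in risperidone rats. The striatal projection neuron list had 1 of 8 lower after risperidone, with means of 11.9 to 12.2 in vehicle, 11.77 to 12.04 in haloperidol and 11.00 to 12.10 in risperidone rats. Without the 4 arrays, Gria1 differed by -0.55 (adjusted p = 0.00407) and Gria3 with 1368691_at by -0.52 (adjusted p = 1.18e-04). With the pyramidal marker mean as a covariate in striatum alone, Gria1 was at -0.52 and lost its call (adjusted p = 0.218), and Gria3 was at -0.58 and kept it (adjusted p = 0.0155). In hippocampus the choroid plexus and meningeal markers had means of 6.65 to 7.63 in vehicle and 6.93 to 8.76 in risperidone rats, with none of 7 tested genes passing. Of the other cell types, the 4 endothelial markers had median differences of -0.28 in frontal cortex (1 lower), -0.25 in hippocampus and -0.25 in striatum after risperidone, with list means of 8.21 to 8.62 in vehicle and 7.65 to 8.30 in risperidone rats in frontal cortex, 8.18 to 8.45 and 7.75 to 8.26 in striatum. Of 6 astrocyte markers 1 was higher in striatum after risperidone, and no oligodendrocyte or microglial marker passed. The part of these markers in the subunit differences was not otherwise tested.

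**Figure D4:**
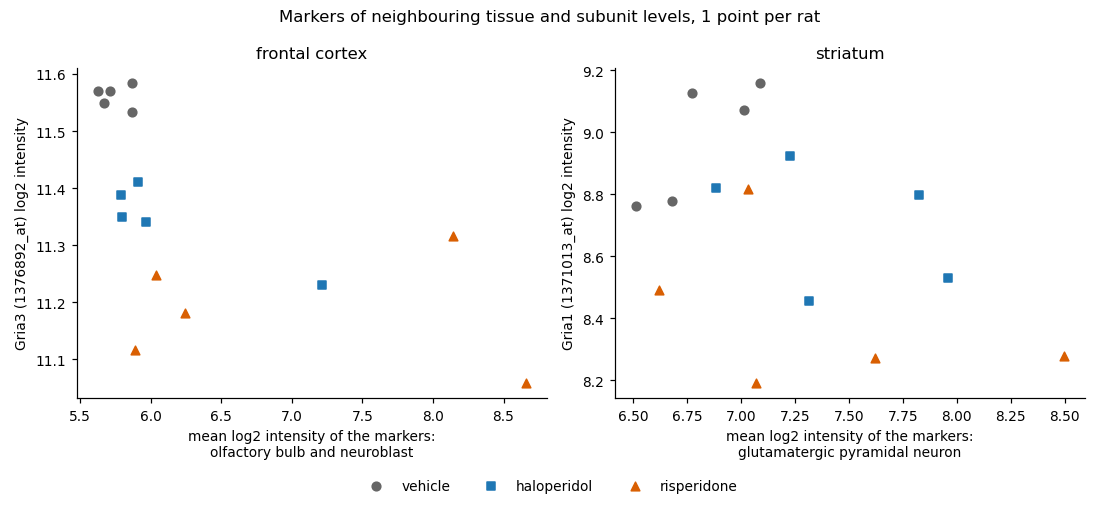
Left, Gria3 (1376892_at) log2 intensity against the mean log2 intensity of olfactory bulb and neuroblast markers in each frontal cortex; right, Gria1 against the mean of pyramidal neuron markers in each striatum. Points are rats, coloured by treatment. In frontal cortex every risperidone rat was above every vehicle rat in the marker mean and below every vehicle rat in Gria3.

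The transcripts of proteins that bind AMPA and kainate receptors were examined in 5 lists of 39 genes, of which 34 had a probe set and 30 were tested (44 probe sets). None passed after haloperidol in any region or after risperidone in hippocampus, 2 genes were lower after risperidone in frontal cortex, 4 were lower in striatum, and none was higher. By probe sets these were 2 of 44 in frontal cortex and 5 of 44 in striatum, where 1.89% and 2.76% of all tested probe sets were lower. Counts this small measure a share poorly. The median difference over the 44 probe sets was -0.08 in frontal cortex and -0.10 in striatum after risperidone, against 0.01 and -0.02 over all tested probe sets. Of the 12 tested AMPA receptor auxiliary subunits, Cacng2 (stargazin) fell in frontal cortex and Cacng3 in striatum. Both encode TARPs, membrane proteins that carry AMPA receptors to the synapse and slow their closing. Of the 12 tested trafficking and clustering proteins, Abhd6, whose product limits surface delivery of AMPA receptors, and Nsf, an ATPase that binds GluA2, fell in striatum. Of the 4 tested kainate receptor partners, Neto1 fell in frontal cortex and Neto2 in striatum. Of the RNA editing enzymes, 2 of 3 were tested and none passed, and no delta receptor gene was above the filter.

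Neto1 and Neto2 are auxiliary subunits that slow the gating of kainate receptors. In striatum Neto2 (1384904_at) was at 9.20, 9.09, 9.21, 9.39 and 9.35 in vehicle rats, 9.04, 9.11, 8.86, 8.64 and 8.79 in haloperidol rats and 8.62, 9.08, 8.04, 8.67 and 8.56 in risperidone rats. No risperidone rat reached the lowest vehicle rat, which held in one direction or the other for 3.65% of all probe sets, and the haloperidol rats overlapped both groups, with a mean between theirs. The difference was -0.65 (SE 0.11, adjusted p = 2.29e-04) for risperidone and -0.36 (adjusted p = 0.124) for haloperidol. Its second probe set, 1393729_at, was at -0.32 after risperidone and did not pass (adjusted p = 0.0952). The striatal risperidone effect exceeded that in frontal cortex by -0.58 (adjusted p = 0.0155) and that in hippocampus by -0.61 (adjusted p = 0.0163). In frontal cortex Neto1 was at 6.51, 6.20, 5.87, 6.20 and 6.14 in vehicle rats and 5.62, 5.82, 5.21, 5.47 and 5.45 in risperidone rats, a difference of -0.67 (SE 0.16, adjusted p = 0.0128) without overlap (5.64% of all probe sets). All risperidone rats and the third vehicle rat lay below 5.883, the filter value, so this difference is taken on a dim signal. Vehicle means were higher in hippocampus (6.33) and striatum (6.62).

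Cacng3 in striatum was at 9.04 to 9.37 in vehicle, 8.70 to 8.93 in haloperidol and 8.27 to 8.94 in risperidone rats, so neither drug group overlapped vehicle (3.42% of all probe sets for haloperidol and 3.65% for risperidone). Risperidone differed by -0.51 (SE 0.10, adjusted p = 0.00172) and haloperidol by -0.40 (SE 0.10, adjusted p = 0.0562). Its risperidone effect in striatum minus that in hippocampus was -0.68 (adjusted p = 0.0071). Cacng2 in frontal cortex was at 8.77 to 8.98 in vehicle and 8.10 to 8.75 in risperidone rats (-0.34, adjusted p = 0.0412), a call lost with 7 of the 15 rats left out in turn, risperidone rat 2 among them (-0.24, adjusted p = 0.191), and at -0.16 (adjusted p = 0.316) without the 4 arrays. Its second probe set, 1375735_at, was at -0.17 (adjusted p = 0.201). Abhd6 was at -0.31 (adjusted p = 0.0302) in striatum with 1390155_at. It lost this call with 7 of the 15 rats left out in turn and without the 4 arrays (-0.28, adjusted p = 0.112). Its second probe set, 1380332_at, did not pass in striatum, at -0.81 (adjusted p = 0.0721) after risperidone and -1.02 (adjusted p = 0.0855) after haloperidol. Nsf was at -0.33 and -0.27 with 2 probe sets and at -0.06 with the remaining one. The first 2 lost their calls with 3 and 5 of the 15 rats left out in turn, risperidone rat 3 among them (adjusted p = 0.198 and 0.153). They also lost them without the 4 arrays (adjusted p = 0.167 and 0.126). The calls of Neto1, Neto2 and Cacng3 held with each of the 15 rats left out and were lost with the marker covariate of the region (-0.74, -0.48 and -0.39, adjusted p = 0.0715, 0.212 and 0.196). Fitted on striatum alone, Neto2 and Cacng3 did not pass (adjusted p = 0.061 and 0.054).

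**Figure D5:**
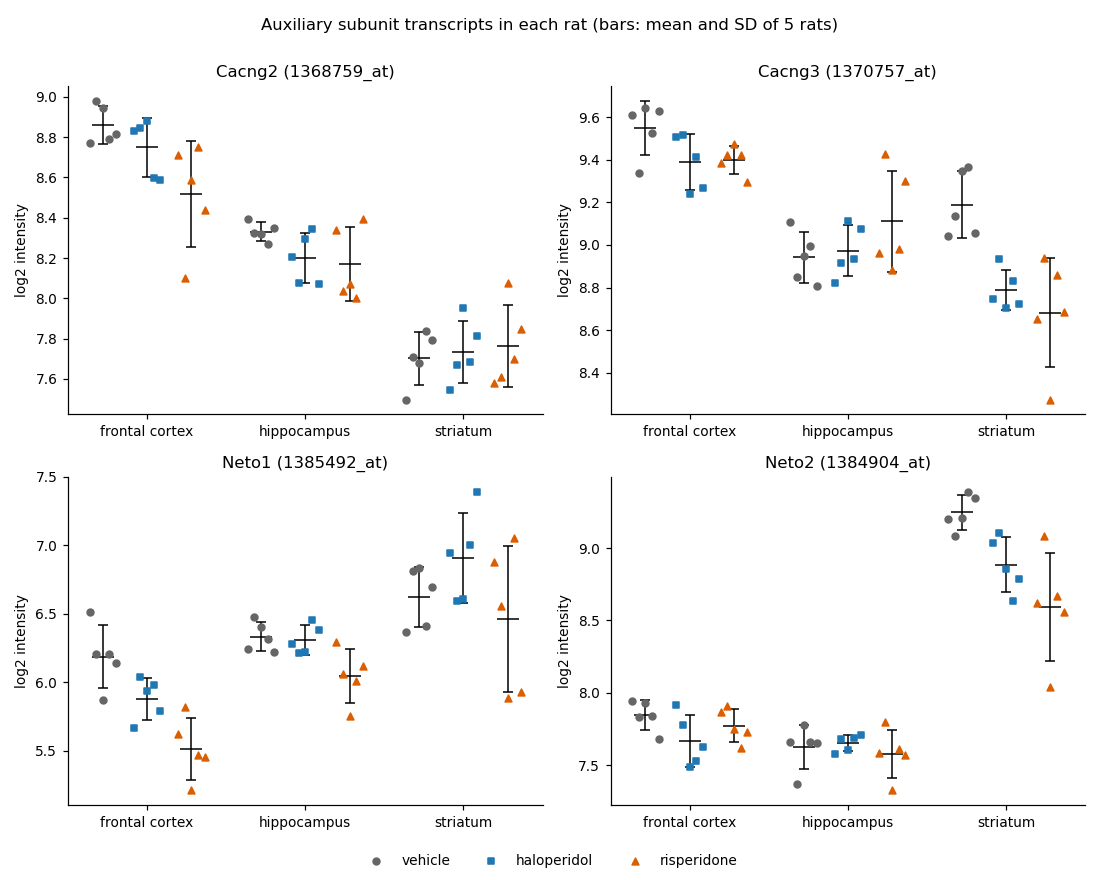
Log2 intensity (deposited scale) of the TARP genes Cacng2 and Cacng3 and of the kainate receptor partners Neto1 and Neto2 in each rat by region and treatment, with bars for the mean and SD of 5 rats. In striatum all risperidone rats were below all vehicle rats for Cacng3 and Neto2, and in frontal cortex for Cacng2 and Neto1, where groups without overlap made up 3.65% and 5.64% of all probe sets.

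In 3 further cases the risperidone effect on a listed gene differed between regions. Cacng4, another TARP, had an effect in striatum below that in frontal cortex by -0.38 (adjusted p = 0.0327) and below that in hippocampus by -0.42 (adjusted p = 0.0273). Dlg1 (SAP97), a scaffold that binds GluA1, had an effect in hippocampus above that in frontal cortex with both probe sets, by 0.44 (adjusted p = 0.0442) and 0.47 (adjusted p = 0.0232). These calls were lost with 5 to 8 of the 15 rats left out in turn.

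The partner transcripts also differed between regions of the vehicle rats. Cacng8, the main hippocampal TARP, was higher in hippocampus than in frontal cortex by 1.23 on the log2 scale and lower in striatum than in hippocampus by -2.01, and Cnih2, which encodes a cornichon subunit, was higher in hippocampus by 1.31. Gria1 and Grik4 had the same order of hippocampus over frontal cortex. Cacng4 was higher in striatum than in frontal cortex by 1.18, as were Syndig1 (0.80), Shisa7 (0.77) and Gsg1l (0.72), while Cacng2 (-1.08) and Frrs1l (-1.13) were lower. Neto2 was higher in striatum by 1.49, the direction of Grik2, and C1ql3, a secreted synaptic organizer, was lower by -4.69. The neuronal pentraxin Nptx1 (-3.41) and its receptor Nptxr (-3.66), which cluster AMPA receptors from outside the cell, were also far lower in striatum than in frontal cortex, and the anchor Akap5 was higher by 1.52. In all, by at least 1 probe set, 9 of the 30 genes were higher and 6 lower in hippocampus than in frontal cortex. In striatum 15 were higher and 8 lower than in frontal cortex, and 12 higher and 11 lower than in hippocampus. By probe sets 19, 27 and 28 of 44 passed in these comparisons, where 31%, 45.5% and 46.1% of all tested probe sets passed.

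The genes whose pattern over the 45 arrays was most like that of each member were found by Pearson correlation among 10240 genes with 1 probe set each. The points share regions and rats, and the values describe mainly the regional pattern. For Gria1 they were Fibcd1 (0.973), Abi1 (0.973) and Rab8b (0.973), for Gria2 Cox18 (0.963), Zdhhc23 (0.962) and Usp9x (0.961), and for Gria3 Slc16a7 (0.947), R3hdm1 (0.944) and Psd3 (0.938). Gria4 reached 0.716 with Cox10, 0.658 with Dact2 and 0.646 with Ephx4. Among the kainate subunits Grik4 had the closest partners, Sbf1 (0.984), Rnf182 (0.983) and Spns2 (0.981), followed by Grik2 with Sez6 (0.963), Zswim5 (0.960) and Utp25 (0.958). Grik1 was nearest to Enoph1 (0.915), Stx12 (0.903) and Mrpl46 (0.902), and Grik5 to Huwe1 (0.903), Crtc1 (0.901) and Kmt2d (0.899).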

How the data were processed

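Total RNA was extracted with Trizol, labelled and hybridized to Affymetrix rat arrays. The authors normalized the arrays by RMA (R 2.7.2 in the submitters' processing notes), and the deposited values are linear intensities for 31099 probe sets. No source used here says which arrays were normalized together. Values were taken to log2, 57 control probe sets were dropped, and 18609 probe sets whose mean reached the 40th percentile entered the tests. With limma 3.58.1 (R 4.3.3) a mean was fitted to each combination of region and treatment, and the rat, known from animal numbers in the labels, entered as a random block (consensus correlation 0.226). Two-sided p-values were corrected for each comparison by the Benjamini-Hochberg method, and a difference passed at an adjusted p below 0.05 and at least 1.2-fold. The number of arrays limits the precision. Fits without a rat kept the correlation of all arrays. Gene names came from the platform annotation and positions from RefSeq. All member probe sets are named, as are the 3 nearest genes of each and the listed genes that passed (in region comparisons, examples only). Members and lists were chosen with earlier results of these data known. Scripts were tested on simulated data. Deviations from group means were correlated between regions of the same rat (median 0.354, 44 of 45 pairs above 0.1) and not between equally numbered rats of different treatments (median -0.0178), which share only a number.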

Additional observations from a re-analysis of the deposited data

Results flagged for a closer look

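Of 117 groups of 5 rats (13 probe sets, 3 regions, 3 treatments), 5 held a rat whose distance from the nearest other rat took up most of the group's range by Dixon's criterion. Chance gives this in about 1 in 20 groups. Gria2 (1368401_at) was lowest at 11.545 in striatum of risperidone rat 3, an array that was also high in pyramidal neuron markers. Grik5 was lowest at 8.36 in frontal cortex of haloperidol rat 5, an array high in olfactory bulb markers, and highest at 9.00 in striatum of haloperidol rat 4. Gria1 was lowest at 10.11 in hippocampus of vehicle rat 1, and Gria4 (1396696_at) was lowest at 7.25 in hippocampus of risperidone rat 1. The part of the markers in these values was not tested.

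The risperidone effect differed between regions for 3 members in a test of the difference itself. It was 0.36 higher in hippocampus than in frontal cortex for Gria3 (1376892_at), it differed by -0.48 between striatum and frontal cortex for Gria1, and it was 0.61 higher in striatum than in hippocampus for Grik4. The Gria1 call was lost with 6 of the 15 rats left out in turn, with adjusted p up to 0.116 without vehicle rat 5, and without the 4 arrays apart in neighbouring-tissue markers (-0.38, adjusted p = 0.201).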

How the results depend on the processing

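Over 28 other settings the 32 member differences that passed gave 713 values, of which 672 kept direction and call, 41 kept direction and lost the call, and none changed sign. Counts of member probe sets that passed moved as follows. Haloperidol in striatum went from 0 to 1 with array weights and without the arrays high in markers of neighbouring or of any foreign tissue (the second set of arrays was chosen after seeing the data), risperidone against haloperidol in striatum from 0 to 1 under the same settings, and the haloperidol effect between striatum and hippocampus from 0 to 1 with array weights. Risperidone in frontal cortex went from 2 to 1 with 1 probe set per gene and to 0 with the marker covariate. Risperidone in hippocampus went from 0 to 3 with array weights and 2 without neighbouring-tissue arrays, none of which is from hippocampus. Risperidone in striatum went from 2 to 1 with 1 probe set per gene, with each region fitted alone or with the covariate. With the replicate block of the title numbers it went to 0 (Gria1 adjusted p = 0.111, Gria3 0.0517), in a fit on 15 arrays, and no other count of passing members moved. The risperidone effect between hippocampus and frontal cortex went from 1 to 2 with array weights and to 0 with no filter, no random block for the rat, quantile normalization or without foreign-tissue arrays. Between striatum and frontal cortex it went from 1 to 2 with quantile normalization and to 0 with array weights, median centring, no filter, no random block for the rat or without either set of arrays. Between striatum and hippocampus it went from 1 to 0 with no random block for the rat or without foreign-tissue arrays. Striatum against frontal cortex in vehicle rats went from 8 to 5 with 1 probe set per gene. With each rat left out in turn the counts ran from 0 to 1 for risperidone against haloperidol in striatum, 0 to 1 for risperidone in hippocampus, 2 to 4 for risperidone in striatum, and 0 to 1, 0 to 3 and 0 to 1 for the risperidone effect between hippocampus and frontal cortex, striatum and frontal cortex, and striatum and hippocampus. Changes of sign were seen for Adar, higher in striatum than in hippocampus of vehicle rats by 0.29 but at -0.0149 on deposited values, and for Grik4, whose risperidone effect in striatum minus frontal cortex, 0.30 (adjusted p = 0.172), was -0.00313 without the foreign-tissue arrays. On deposited values the regional calls of Gria4 between striatum and hippocampus with 1369384_at (0.12) and 1383707_at (0.06) and between hippocampus and frontal cortex with 1383707_at (-0.25) and 1396696_at (-0.21) were lost. The causes were not tested.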
